A study of Mus musculus with 6 samples.

Results

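The genes described here encode the peptides of the calcitonin gene-related peptide (CGRP) system and the subunits of its receptor, measured in mouse trigeminal ganglion. They were chosen by name: Calca, Calcb, Calcrl, Ramp1, Ramp2, Ramp3 and Crcp, and all 7 are among the 16415 genes of the deposited table. Bulk messenger RNA was sequenced from 3 libraries of ganglia treated with SETDB2-up and 3 treated with NC-up, and the labels give every animal a wild-type genotype. The labels do not spell out either treatment or say how it was given, name no strain, age or sex, and leave unsaid whether each library is a different animal. The p-values therefore reflect only library-to-library spread, which may be technical. The series title links SETDB2, KLF4 and IDE with CGRP in sensory neurons in migraine, which is the question that the comparison addresses.

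CGRP is a neuropeptide of nociceptive sensory neurons. Trigeminal neurons carry it to the meninges, where its release dilates vessels, and antibodies and antagonists that block CGRP or its receptor are used against migraine. The peptide is made in an alpha form from Calca, whose transcript is spliced to encode either CGRP or the hormone calcitonin, and in a beta form from Calcb. Its receptor is a G protein-coupled receptor, the product of Calcrl, which needs a RAMP partner to reach the membrane. RAMP1 makes the pair a CGRP receptor, while RAMP2 and RAMP3 make it a receptor for adrenomedullin. The receptor raises cyclic AMP through the stimulatory G protein, and Crcp encodes an intracellular protein that aids this coupling and is also a subunit of RNA polymerase III.

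Both CGRP genes lie on chromosome 7, Calca (gene 12310, minus strand) at chr7:114625981-114636910 and Calcb (gene 116903, plus strand) at chr7:114716555-114723368 in GRCm38. Because they are close relatives, their reads can be told apart only where their sequences differ. The stretch that encodes the mature peptide of 37 residues is shown for that reason, read from the GENCODE M21 transcripts, with capitals at the bases that differ. It lies in exon 4 of a transcript of 5 exons in both genes, at chr7:114632470-114632580 (minus strand) in Calca and chr7:114721994-114722104 (plus strand) in Calcb.
Calca: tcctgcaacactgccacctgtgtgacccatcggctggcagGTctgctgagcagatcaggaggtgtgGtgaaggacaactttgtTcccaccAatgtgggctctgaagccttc
Calcb: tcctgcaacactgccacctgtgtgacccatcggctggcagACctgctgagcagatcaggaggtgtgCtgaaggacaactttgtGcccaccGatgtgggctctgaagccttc
The stretches differ at 5 of 111 bases (95.5% identical), with no difference over a run of 40 bases. Beyond this stretch the genes diverge: of the 1634 different 50-base words in the Calca transcripts, 12 (0.734%) also occur in Calcb transcripts, which is 1.15% of the Calcb words. Most read positions therefore separate them, and no listed gene overlaps either locus. The table gives 1 value per gene, so CGRP and calcitonin transcripts of Calca were not separated here.

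Calca rose in the SETDB2-up ganglia, and it was the only one of the 7 genes to pass the test. Its normalised read counts were 9368, 9393 and 9931 in SETDB2-up libraries 1 to 3, against 8203, 7748 and 8082 in NC-up libraries 1 to 3. Every SETDB2-up library lay above every NC-up library, and the means were 9564 ± 318 in SETDB2-up and 8011 ± 236 in NC-up (SD, n = 3 each). The fold was 1.19, or 0.26 ± 0.05 on the log2 scale (SE; 95% interval 0.14 to 0.37; adjusted p = 0.00335 in limma). Calca was among the more abundant messages of the ganglion, at rank 300 of 16415 by mean normalised count. Over all genes tested, 16.4% passed the same threshold, 7.71% as rises and 8.71% as falls, so 1 of 7 genes is close to the share found across the transcriptome. In bulk tissue, more cells of a type and more RNA per cell cannot be told apart.

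Calcb did not pass. It had 999, 1005 and 1075 normalised reads in SETDB2-up libraries, against 1017, 1109 and 1006.5 in NC-up libraries, and the groups overlap. The log2 fold change was -0.02 ± 0.07 (SE; adjusted p = 0.857 in limma), and its 95% interval on the log2 scale, -0.18 to 0.13, ends below the 0.14 at which that of Calca begins. Set against Calcb within each library, a comparison that does not depend on library scaling, Calca held 85.6%, 85.6% and 85.4% of the summed level per exonic base in SETDB2-up, against 83.7%, 81.6% and 83.6% in NC-up. The log2 ratio of Calca to Calcb was 0.28 higher in SETDB2-up, with no overlap between groups (exact two-sided permutation p = 0.1, the smallest that 3 against 3 libraries allow; adjusted over 4 ratios 0.2). Without NC-up library 2 this difference was 0.21. The log2 fold changes were then 0.23 ± 0.06 for Calca and 0.02 ± 0.08 for Calcb (SE), closer together than with all libraries.

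**Figure D1:**
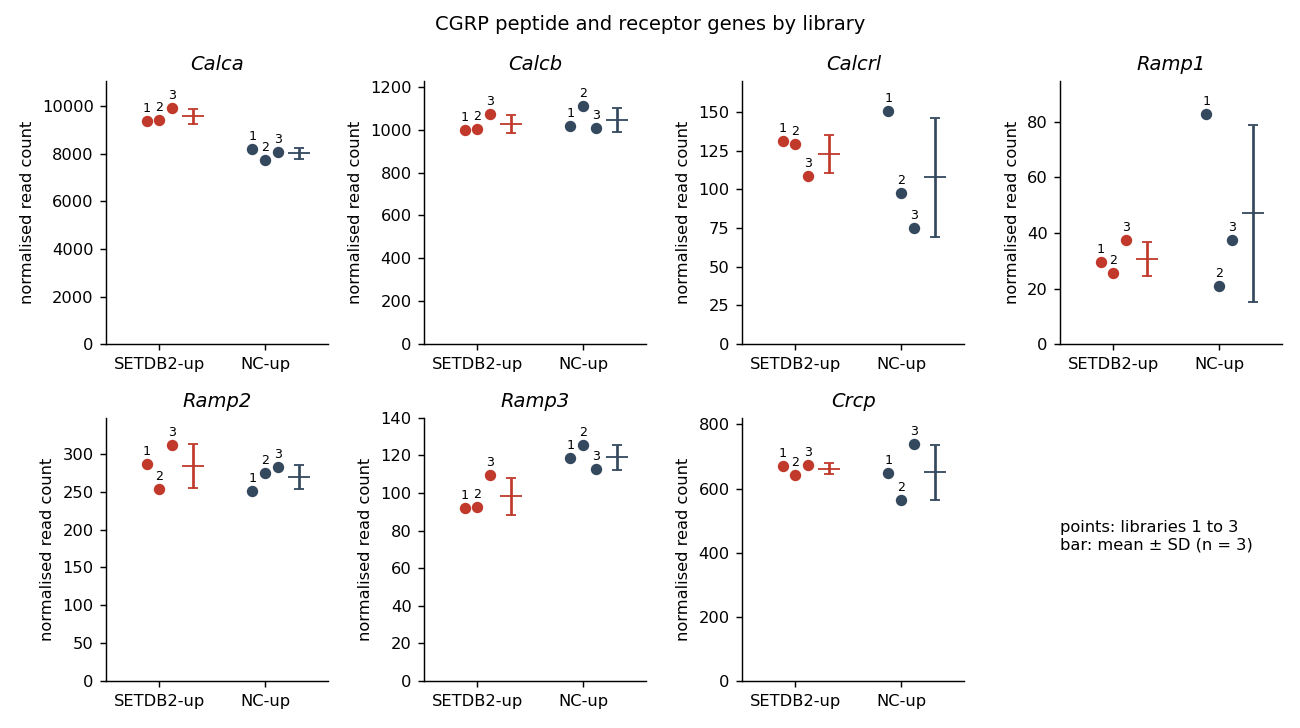
Normalised read count of each gene in SETDB2-up and NC-up libraries, with points numbered by library, bars giving mean ± SD (n = 3) beside them and every axis starting at 0. The 3 SETDB2-up values for Calca lie above the 3 NC-up values, Calcb overlaps, and NC-up library 1 stands above the others of its group for Ramp1 and Calcrl.

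Calcrl, which encodes the receptor protein itself (gene 54598, chr2:84330626-84425405, minus strand), did not pass. Its values were 131, 129 and 109 in SETDB2-up and 150.4, 97.7 and 75.1 in NC-up, so that the NC-up libraries spanned the whole SETDB2-up range. The log2 fold change was 0.24 ± 0.21 (SE; adjusted p = 0.469 in limma), with a 95% interval of the fold from 0.871 to 1.61. Its transcripts hold 37.8% G and C, the lowest share of the 7 genes, and after a correction of each library for transcript GC content the log2 fold change was -0.020 ± 0.21 (SE; adjusted p = 0.969 in limma). Leaving out NC-up library 3 brought the value to 0.016 and leaving out NC-up library 1 to 0.51, neither past the threshold (limma adjusted p = 0.968 and 0.0781).

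Ramp1, the partner that gives the receptor its affinity for CGRP (gene 51801, chr1:91179822-91225196, plus strand), was the least abundant of the 7 and the most variable. It had 29.4, 25.4 and 37.5 normalised reads in SETDB2-up, against 82.6, 21.1 and 37.5 in NC-up. The NC-up values spread far beyond counting error, since the 78 recovered reads of library 1 give an exact 95% Poisson interval of 65.3 to 103 normalised reads and the 22 reads of library 2 one of 13.2 to 31.9. The chi-square per degree of freedom was 1.29 in SETDB2-up and 21.8 in NC-up, where 1 is the value for counting noise alone. In NC-up it also lay above 1 for Calcrl (14.2), Crcp (12.6), Calca (7.04) and Calcb (3.20), but not for Ramp2 (0.991) or Ramp3 (0.374). Calca had the highest value in SETDB2-up, 11.5. For Ramp1 the log2 fold change was -0.40 ± 0.38 (SE; adjusted p = 0.518 in limma; 95% interval of the fold 0.434 to 1.32), and without NC-up library 1 it turned to 0.11 (limma adjusted p = 0.878). The summed level of 9 macrophage markers was 4019 to 4385 in SETDB2-up, against 5887 in NC-up library 1 and 4099 to 4494 in the other NC-up libraries, and the part of this in the Ramp1 value was not tested.

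Ramp2 (gene 54409, chr11:101246334-101248250, plus strand) and Ramp3 (gene 56089, chr11:6658506-6677478, plus strand) encode the partners that turn the receptor towards adrenomedullin. Ramp2 had 287, 253 and 311 normalised reads in SETDB2-up and 251, 275 and 282 in NC-up, with overlapping groups and a log2 fold change of 0.07 ± 0.12 (SE; adjusted p = 0.727 in limma; 95% interval on the log2 scale -0.18 to 0.32). Ramp3 had 92.1, 92.6 and 109.8 in SETDB2-up and 119, 125 and 113 in NC-up. All SETDB2-up libraries lay below all NC-up libraries for Ramp3, but its log2 fold change of -0.28 ± 0.17 did not pass (SE; adjusted p = 0.285 in limma; 95% interval of the fold 0.645 to 1.06). Calca and Ramp3 are the 2 of the 7 genes without overlap between groups, against 33.3% of all genes tested, 16.8% with SETDB2-up above and 16.4% with SETDB2-up below. Of the 50-base words of the Ramp3 transcripts 4.65% match the opposite strand of Gm11978, a locus that is not analysed here, so reads there depend on the strand setting of the count, which no label or header states.

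Crcp (gene 12909, chr5:130029306-130060787, plus strand) did not pass either. Its values were 672, 642 and 673 in SETDB2-up and 649, 563 and 737 in NC-up, where libraries 2 and 3 lie on either side of all other values. The log2 fold change was 0.03 ± 0.09 (SE; adjusted p = 0.838 in limma; 95% interval of the fold 0.894 to 1.17). Of 12 other subunits of RNA polymerase III, none passed in limma, among them Polr3g (0.17 ± 0.07 SE), Polr3b (0.11 ± 0.08 SE) and Polr1d (0.23 ± 0.08 SE) as log2 fold changes, with a list median of 0.04 against 0.00 over all genes tested. In edgeR's quasi-likelihood test none of the 12 passed. At an unadjusted p under 0.05 limma gave 4 of the 12, with Polr1d, Polr3g and Polr3f higher in SETDB2-up and Polr3c lower. The share of all genes under that looser cut is not given here, so the 4 cannot be set against it.

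**Figure D2:**
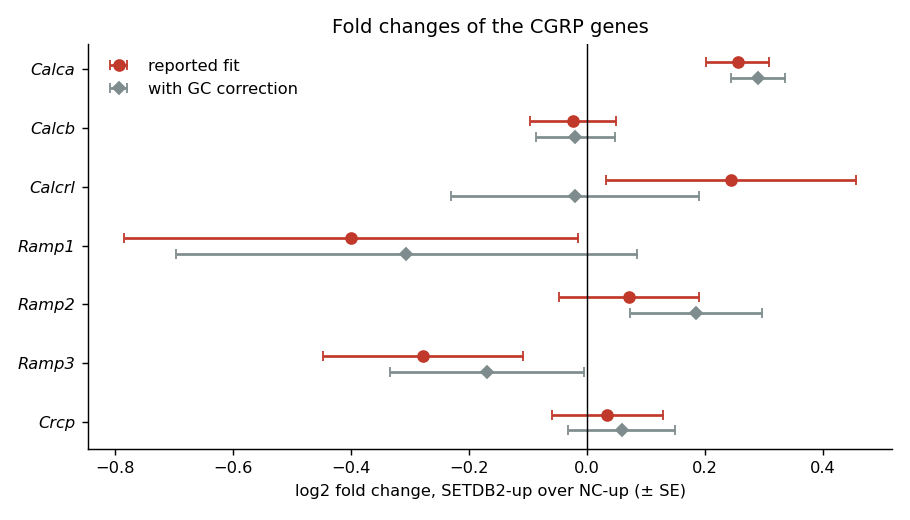
Log2 fold change (SETDB2-up over NC-up, horizontal axis, ± SE) of the 7 genes in the reported fit (circles) and after the GC correction (diamonds). Calca keeps a fold change above 0 in both (0.26 and 0.29), Calcrl moves to -0.020 with the correction, and the bars of Ramp1 are the widest.

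Per kilobase of exonic sequence, which allows levels to be compared between genes, the peptides stood far above the receptor subunits. Calca averaged 5839 ± 194 normalised reads per kilobase in SETDB2-up and 4891 ± 144 in NC-up (SD, n = 3 each), and Calcb 987 ± 40.7 in SETDB2-up and 1004 ± 54.2 in NC-up. Crcp followed with 444 ± 11.8 in SETDB2-up and 436 ± 58.4 in NC-up. The RAMP partners for adrenomedullin came next, Ramp2 with 218 ± 22.5 in SETDB2-up and 207 ± 12.6 in NC-up, and Ramp3 with 79.6 ± 8.15 in SETDB2-up and 96.4 ± 5.21 in NC-up. The parts of the CGRP receptor were lowest, Calcrl with 25.2 ± 2.52 in SETDB2-up and 22.1 ± 7.92 in NC-up, and Ramp1 with 10.2 ± 2.03 in SETDB2-up and 15.6 ± 10.5 in NC-up. Over the 6 libraries neighbours in this order did not overlap, except Calcrl (15.4 to 30.8) and Ramp1 (6.97 to 27.3). The exonic lengths come from GENCODE M21 and join all basic transcripts of a gene, so a gene that uses a short transcript is understated.

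Ramp2 was the main RAMP message. Of the summed level of the RAMP genes per exonic base, Ramp2 made up 72.3%, 70.0% and 70.3% in SETDB2-up and 61.0%, 66.0% and 67.7% in NC-up. Ramp3 made up 24.5%, 27.0% and 26.1% in SETDB2-up and 30.4%, 31.8% and 28.5% in NC-up, and Ramp1 3.19%, 3.02% and 3.64% in SETDB2-up and 8.63%, 2.18% and 3.87% in NC-up. The log2 ratio of Ramp1 to Ramp2 differed by -0.47 (SETDB2-up minus NC-up), and that of Calcrl to Ramp1 was 0.64 higher in SETDB2-up. The groups overlapped in both ratios (exact two-sided permutation p = 0.7 and 0.3; adjusted over 4 ratios 0.7 and 0.4), and without NC-up library 1 the first of these differences was 0.085.

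The cell type content of the libraries was then set beside the Calca rise. Counts of markers that passed stand against 7.71% of all genes tested up and 8.71% down. Of 9 markers of peptidergic nociceptors, the neurons that make CGRP, 1 rose, none fell and 8 did not pass, with a median log2 fold change of 0.07 against 0.00 over all genes tested. The riser was Tac1, which encodes substance P, with 2405, 2445 and 2433 normalised reads in SETDB2-up, against 1916, 1827 and 1884 in NC-up (log2 fold change 0.37 ± 0.06 SE; adjusted p = 0.000384 in limma; 0.24 after GC correction, adjusted p = 0.0128). The heat and capsaicin channel gene Trpv1 did not pass, at a log2 fold change of 0.07 ± 0.07 (SE). The summed level of the 9 markers was 11269 to 11690 in SETDB2-up and 11116 to 11710 in NC-up, so it overlapped where Calca did not.

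Of 16 markers shared by sensory neurons, 2 rose (Stmn2 and Scn9a), 2 fell (Pou4f1 and Prdm12) and 12 did not pass, and their sums were 506981 to 526393 in SETDB2-up and 507110 to 533104 in NC-up. After the GC correction Pou4f1 kept its call (-0.41, limma adjusted p = 0.000499), Stmn2, Scn9a and Prdm12 lost theirs (adjusted p = 0.575, 0.180 and 0.420), and Tubb3 passed as a rise (0.17, adjusted p = 0.0386). Measured against the mean log2 level of these 16 within each library, Calca was 0.26 higher in SETDB2-up, with no overlap between groups (exact two-sided permutation p = 0.1, the smallest possible; adjusted over 4 ratios 0.2). Markers of other sensory neuron types gave 2 rises in 10, Ntrk2 and Ntrk3, and their sum was higher in SETDB2-up, at 20536 to 21300 against 17789 to 18796 in NC-up. Of these, Ntrk2 passed after the GC correction (0.20, limma adjusted p = 0.0367) and Ntrk3 did not (0.33, adjusted p = 0.0804), and SETDB2-up library 3, at 2930.4 normalised reads of Ntrk3, lay within the NC-up range of 2820.1 to 3184. Among non-neuronal markers, 3 of 7 myelin, 3 of 7 fibroblast, 2 of 14 endothelial and 1 of 9 macrophage genes fell and none of these rose. By contrast 1 of 10 mural and 1 of 6 satellite glia genes rose and none fell. The shares over all genes tested were 7.71% up and 8.71% down, and 6.25% passed in either direction after the GC correction. After the GC correction the 3 fibroblast falls and the satellite glia rise were the calls kept, no endothelial, macrophage or mural gene had a call, and 1 myelin gene as a rise (Pmp22) and 1 satellite glia gene as a fall (Fabp7) passed instead. The endothelial sum, relevant to Ramp2 and Calcrl since vessels express both, was 5456 to 5610 in SETDB2-up and 5890 to 6197 in NC-up. Cldn5, a tight junction protein of vessels, had the lowest log2 fold change of the 14 (-0.40, limma adjusted p = 0.00237). After the GC correction Cldn5 was at -0.17 (limma adjusted p = 0.186). The median of the 14 was -0.15, and Emcn (0.27), Pecam1 (0.12), Flt1 (0.11), Erg (0.09) and Sox17 (0.0008) lay above 0, none past the threshold. How much these shifts contribute to the values of the 7 genes was not tested.

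**Figure D3:**
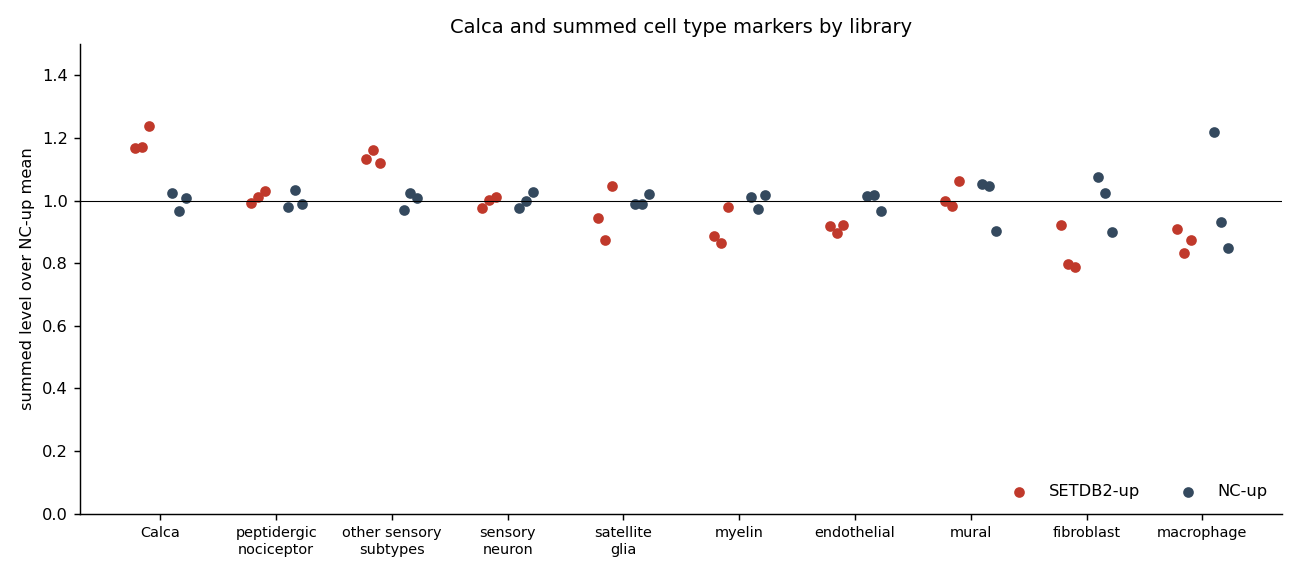
Calca and the summed normalised counts of 9 cell type marker lists in each library, divided by the NC-up mean (vertical axis, from 0), with SETDB2-up left of NC-up. Calca lies at 1.17 to 1.24 in SETDB2-up, while the sensory neuron sum lies at 0.976 to 1.01 there and at 0.976 to 1.03 in NC-up. The sum for other sensory subtypes is also higher in SETDB2-up, at 1.12 to 1.16 against 0.969 to 1.02 in NC-up.

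Facts of the whole series bear on these values as follows. Recovered reads per library ran from 19334997 to 23501386 over the listed genes, and 2690 of 16387 genes tested changed, 1263 up and 1427 down, against 354 up and 615 down (969 of 15513, 6.25%) after the GC correction. Setdb2 was higher in SETDB2-up, with 113, 97.6 and 104 normalised reads against 69.9, 58.4 and 71.5 in NC-up (log2 fold change 0.65 ± 0.19 SE; adjusted p = 0.0253 in limma; 0.48 after GC correction, adjusted p = 0.154), and Klf4, a zinc-finger transcription factor, was lower (-0.71 ± 0.16 SE; adjusted p = 0.00612 in limma; -0.43 after GC correction, adjusted p = 0.156). Transcripts of 12 liver genes summed to 2726, 6531 and 69.6 in SETDB2-up libraries 1 to 3 and to 31.8, 42.1 and 47.4 in NC-up, which puts SETDB2-up libraries 1 and 2 apart. Of the smaller tissue lists, 4 of 6 skeletal muscle, 4 of 4 tested keratinocyte and 1 of 5 red cell genes fell and none rose, against 3, 2 and 1 falls after the GC correction. The red cell genes summed to 5249, 6245 and 15488 in SETDB2-up libraries 1 to 3 and to 10254, 15313 and 7806 in NC-up. For the keratinocyte genes the sums were 120, 127 and 114 in SETDB2-up and 173, 512 and 518 in NC-up. Calca, at 52.8% G and C, passed after the GC correction (log2 fold change 0.29 ± 0.05 SE; adjusted p = 0.000849 in limma) and when SETDB2-up libraries 1 and 2 were left out together (0.31 ± 0.07 SE, adjusted p = 0.0153). That last fit leaves 1 SETDB2-up library, which is assumed to vary like the NC-up group.

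Genes that process, degrade and regulate the peptide were described as lists. They, the marker lists and the 7 genes were picked with earlier results of these data known, so their counts are descriptions. Beside them stand the shares over all genes tested, 7.71% up and 8.71% down. Prohormones are cut and amidated in secretory granules, and of 6 genes for this machinery 1 rose, 1 fell and 4 did not pass. Pcsk1, a prohormone convertase, had 1889, 1776 and 1868 normalised reads in SETDB2-up, against 1266, 1309 and 1420.4 in NC-up (log2 fold change 0.47 ± 0.07 SE; adjusted p = 0.000145 in limma). Pcsk1n, which encodes proSAAS, an inhibitor of that convertase, fell by 0.50 on the log2 scale (limma adjusted p = 7.99e-05). Both held after the GC correction, at 0.26 (adjusted p = 0.0250) and -0.35 (0.0006). The convertase Pcsk2 (0.10 ± 0.05 SE), carboxypeptidase E gene Cpe (-0.08 ± 0.06 SE) and the amidating enzyme gene Pam (-0.04 ± 0.06 SE) did not pass.

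Among 4 peptidases that can cleave CGRP, 2 fell and 2 did not pass. Ide, the insulin-degrading enzyme of the series title, had 1303 ± 47.6 normalised reads in SETDB2-up and 2263 ± 106 in NC-up (SD, n = 3 each; log2 fold change -0.80 ± 0.06 SE; adjusted p = 1.91e-07 in limma; -0.96 after GC correction). Ece1, an endosomal endothelin-converting enzyme that degrades internalised CGRP, fell by 0.21 on the log2 scale (limma adjusted p = 0.0335), and this call was lost after the GC correction (-0.018, adjusted p = 0.900). Neprilysin, from Mme (0.12 ± 0.07 SE), and Ece2 (0.06 ± 0.07 SE) did not pass. Of the other calcitonin family genes, adrenomedullin (Adm, -0.37 ± 0.30 SE), its scavenger receptor Ackr3 (-0.36 ± 0.16 SE) and Gpr182 (0.18 ± 0.26 SE) did not pass, and Adm2, Iapp and Calcr were not analysed here.

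Downstream of the receptor, 4 of 23 genes of the stimulatory G protein, cyclic AMP and CREB fell and none rose. Across all genes tested 8.71% fell and 7.71% rose, the shares to set beside the counts in this paragraph. Gnas, the stimulatory G protein alpha subunit (-0.27 ± 0.06 SE), the protein kinase A catalytic subunit gene Prkaca (-0.30 ± 0.07 SE), the CREB coactivator Crtc3 (-0.29 ± 0.08 SE) and the adenylyl cyclase Adcy5 (-0.24 ± 0.07 SE) were the 4, with limma adjusted p of 0.00277, 0.00478, 0.0136 and 0.0324. The kinase regulatory subunits Prkar1a (0.15 ± 0.05 SE) and Prkar1b (0.01 ± 0.06 SE) and the G protein gene Gnal (0.12 ± 0.06 SE) did not pass, and the list median was -0.03 against 0.00 over all genes tested. After GC correction 3 of the 23 fell, Prkaca (-0.25, adjusted p = 0.0236) and the regulatory subunits Prkar2a (-0.29, 0.00401) and Prkar2b (-0.24, 0.0267), the last 2 named after their values were seen. With that correction 6.25% of all genes tested passed in either direction. For receptor trafficking 2 of 14 rose and 2 fell: the recycling GTPase Rab11a (0.29 ± 0.06 SE) and dynamin Dnm3 (0.22 ± 0.06 SE) rose, the scaffold gene Slc9a3r1, whose product binds RAMP3 (-0.29 ± 0.06 SE), and dynamin Dnm1 (-0.19 ± 0.06 SE) fell, and all 4 lost their calls after the GC correction. Arrb1, an arrestin, the ATPase Nsf and the late endosomal GTPase Rab7 did not pass, at 0.02 ± 0.05, 0.10 ± 0.05 and 0.06 ± 0.06 (SE).

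Genes listed as possible regulators of Calca or of its splicing changed in both directions, 2 of 12 up and 3 down. Over all genes tested, 7.71% rose and 8.71% fell. The neuronal RNA-binding protein genes Rbfox3 (-0.38 ± 0.06 SE; adjusted p = 0.000375 in limma) and Elavl2 (0.37 ± 0.07 SE; adjusted p = 0.00134 in limma) belong to families that influence the choice between calcitonin and CGRP exons, and both kept their calls after the GC correction (-0.20 and 0.22). The splicing factor Srsf3 rose (0.25 ± 0.06 SE) and the E-box factor Usf2 (-0.29 ± 0.07 SE) fell, as did Elavl3 (-0.23 ± 0.07 SE), named after its value was seen, and none of these passed after the correction. Rbfox2 (0.03 ± 0.05 SE), Elavl4 (0.02 ± 0.06 SE) and Rbfox1 (-0.08 ± 0.06 SE) did not pass, although Elavl4 did after the correction (-0.22, limma adjusted p = 0.0151).

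**Figure D4:**
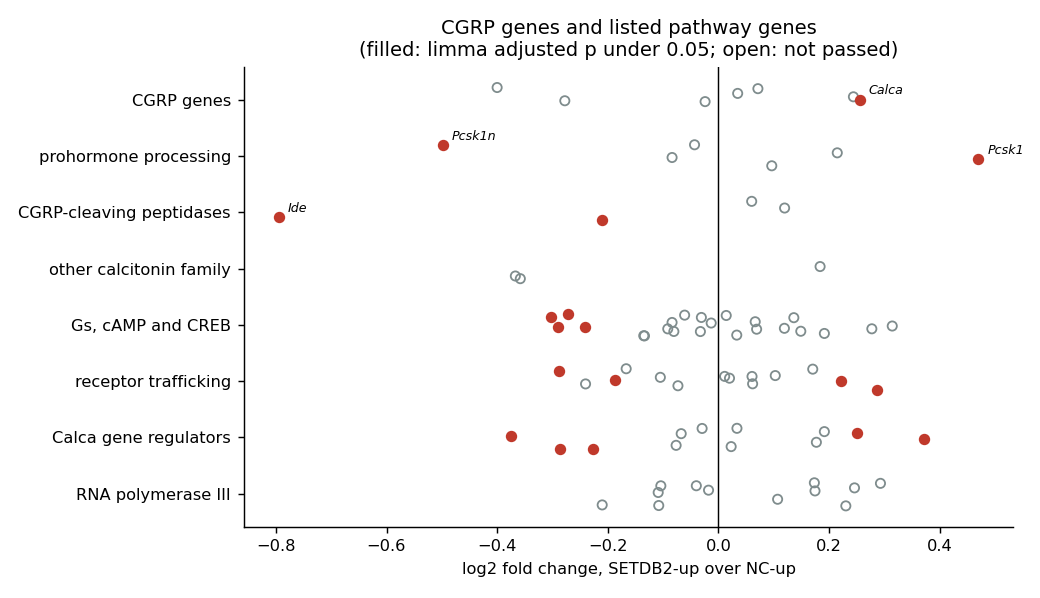
Log2 fold change (SETDB2-up over NC-up) of the 7 CGRP genes and of the members of 7 pathway lists, 1 point per gene, filled where the limma adjusted p is under 0.05 and open where it is not. Ide (-0.80), Pcsk1n (-0.50) and Pcsk1 (0.47) lie farthest from 0 among the filled points, Calca lies at 0.26, and no RNA polymerase III gene is filled.

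The promoter of Calca is shown because Calca is the gene that changed and because both KLF and cyclic AMP factors, named in the series title or acting downstream of the receptor, have short recognition words. It covers 250 bases before to 50 after the transcript start in RefSeq (GRCm38.p6, chr7:114636308-114636607, minus strand, printed 5′ to 3′), with capitals at CACCC, the core of the KLF box (here as its reverse complement), and at TGACG, the shorter form of the cyclic AMP response element, searched on both strands.
Calca promoter: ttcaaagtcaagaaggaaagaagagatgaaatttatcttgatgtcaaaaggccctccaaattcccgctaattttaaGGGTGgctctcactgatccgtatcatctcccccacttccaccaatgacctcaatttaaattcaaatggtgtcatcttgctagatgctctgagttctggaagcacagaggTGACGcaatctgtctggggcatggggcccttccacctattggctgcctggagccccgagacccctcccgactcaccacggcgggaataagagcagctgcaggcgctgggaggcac
It held 1 CACCC on the reverse strand, 174 bases before the start, and 1 TGACG on the forward strand, 65 bases before the start. The listed span of Calca reaches chr7:114636910 and so holds the whole window, which means that these positions apply to the RefSeq start only. At least 1 CACCC occurred in 57.5% of the 32851 RefSeq promoters and at least 1 TGACG in 20.8%. The full TGACGTCA, which contains TGACG, was not in this window (1.79% of promoters), and the E-box CANNTG occurred 2 times (72.3% of promoters). Among the other genes with a promoter sequence, CACCC occurred 1 time for Calcrl and 2 times each for Ramp1 and Ramp3. These are matches of letters, not sites of binding.

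The genes whose pattern over the 6 libraries was most like that of Calca were taken by the smallest root mean square difference of log2 values, each gene centred on its own mean, over 11768 named genes with a mean of at least 100 normalised reads. They were Tmem267 (0.0183), Ddx50 (0.0201), Actr10 (0.0209), Tpgs2 (0.0225) and Mff (0.0237). Ddx50 encodes an RNA helicase, Actr10 a dynactin subunit, Tpgs2 a subunit of the tubulin polyglutamylase complex and Mff a mitochondrial fission factor. Actr10, for example, had 1821, 1842 and 1891 normalised reads in SETDB2-up, against 1538, 1487 and 1543 in NC-up. Tmem267, at 218 ± 9.37 in SETDB2-up and 182 ± 3.90 in NC-up (SD, n = 3 each), did not pass by itself (log2 fold change 0.26, limma adjusted p = 0.175).

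Over 18 other settings Calca stayed past the threshold, at log2 fold changes of 0.23 to 0.31 and adjusted p of 2.17e-06 to 0.0336, and none of the other 6 genes passed in any of them.

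**Figure D5:**
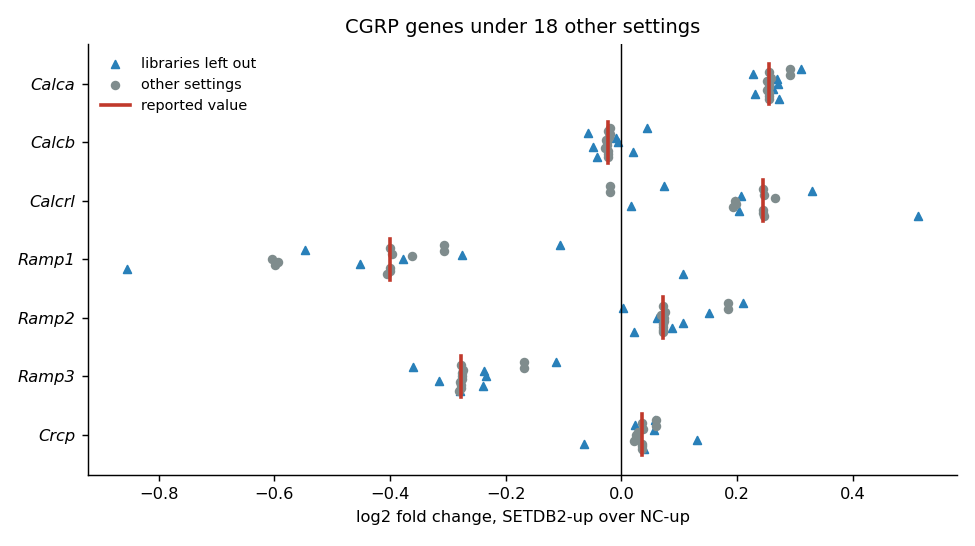
Log2 fold change (SETDB2-up over NC-up) of the 7 genes under 18 other settings, with triangles for fits without 1 or 2 libraries, circles for other tools, scalings and filters, and a red line at the reported value. Calca stays between 0.23 and 0.31, while Ramp1 runs from -0.85 to 0.11 and Calcrl from -0.020 to 0.51.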

How the data were processed

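The authors deposited a normalised signal per gene: read counts divided by 1 factor per library, since every value is a whole multiple of the library's own step (100% of values, tolerance 0.01 read). The submitters' processing notes list HISAT2, FastQC and the GRCm38 build; the counter, its strand setting, the annotation and the factor method are not given there. Per the labels' protocols, libraries were poly-A selected, strand-specific and sequenced as pairs of 150 bp reads. Recovered reads summed to 19334997 to 23501386 per library, and intervals cover counting error only.

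Limma (3.58.1, R 4.3.3) with a mean-variance trend was run on log2(value + 1) over the 16387 genes that reached 1 in 3 or more libraries, with Benjamini-Hochberg adjustment over all of them and a threshold of 0.05. Folds on this scale understate changes of low genes. Ratios within a library had exact two-sided permutation tests. Alternatives were other pseudocounts and filters, edgeR (4.0.16), DESeq2 (1.42.0) and limma-voom on recovered reads, scaling by neuron markers, the replicate number as a block, leaving out libraries, and a loess correction for transcript GC content (GENCODE M21, matched for 94.7% of genes); the fit without 2 SETDB2-up libraries was added after seeing the data. Limma, edgeR, DESeq2 and voom were tested on simulated counts.

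The members and lists were chosen with earlier results of these data known. Named are all members, of each pathway list up to 4 genes past the threshold by smallest p and up to 3 others by level, and the 5 genes most like a member past the threshold; cell type markers named singly were chosen after their values were seen.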

Additional observations from a re-analysis of the deposited data

How the results depend on the processing

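The count of changed genes (2690) was within 1.5 times under other pseudocounts, filters, edgeR, DESeq2, limma-voom and neuron scaling. It was 969 after the GC correction and 1791 with the replicate block and the GC correction together. Leaving out a library gave 1082 to 3335, with 1082 without SETDB2-up library 1, 1575 without SETDB2-up library 2 and 1611 without NC-up library 2, and leaving out SETDB2-up libraries 1 and 2 together gave 447; fewer samples enter these fits. The number of CGRP genes past the threshold was 1 in all 18 alternatives, and the direction of Calca, Ramp2 and Ramp3 held in all of them.

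Reversed directions, all of values that did not pass, were Calcrl after the GC correction with or without the block (-0.0203), and Calcb without SETDB2-up libraries 1 and 2 (0.0437). Leaving out a library gave -0.0578 to 0.0201 for Calcb and -0.0641 to 0.13 for Crcp, both turned by NC-up library 2, and -0.85 to 0.11 for Ramp1 and -0.94 to 0.0850 for the Ramp1 to Ramp2 ratio, both turned by NC-up library 1; the cause was not tested. The labels do not say that equal replicate numbers mark shared animals, and deviations of same-numbered libraries correlated at 0.0711 to 0.0883 over 13560 genes, below the 0.1 set for pairing, though each library correlated best with its own number. With the replicate block 3618 genes passed, Calca among them (0.26 ± 0.04 SE, limma adjusted p = 9.68e-05), and no other of the 7 genes. For Ramp1, at 22 to 78 reads per library, the spread among NC-up libraries (chi-square per degree of freedom 1.29 in SETDB2-up and 21.8 in NC-up) was beyond counting error, so depth alone does not set its limit.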
